A study of Homo sapiens with 4 samples.

Results

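Small nucleolar RNAs and small Cajal body RNAs are noncoding guides, and 18 of them were counted at a base mean of at least 5 in RNA sequencing of cells labelled PANC-1, a human line derived from pancreatic ductal adenocarcinoma. They were chosen by base mean, the average over all libraries of reads divided by a size factor, from the 841 rows of the authors' deposited table whose symbols begin with SCARNA, SNORA or SNORD. The 18 comprise 9 SCARNA, 4 SNORA and 5 SNORD genes, against 59885 rows in the whole table, of which 19603 reach the same base mean. The rule used no fold change, but the set was drawn up with results of these data known, so counts over it are descriptions and no test was made over the members.

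The groups are cells with a CFL1 knockout (CFL1 KO, 2 libraries) and control cells that carry the same line name in the labels (2 libraries), all sequenced from total RNA. CFL1 encodes cofilin-1, which severs actin filaments. The labels name neither the knockout method nor clones, cultures or ages, so a p-value reflects only how far these particular libraries vary, and that variation may be technical. The table has no column per library. The whole numbers of reads behind each base mean were worked out, and the letters A and B name the recovered libraries without tying them to the sample numbers in the labels.

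SNORD genes encode C/D box RNAs, which direct ribose methylation of ribosomal RNA, and SNORA genes encode H/ACA box RNAs, which direct conversion of uridine to pseudouridine. A few members of both kinds, such as U3 and U17, take part in cutting the ribosomal RNA precursor instead. SCARNA genes encode guides of either kind, or composites of both, that reside in Cajal bodies and direct modification of spliceosomal RNAs. Most lie in introns of other genes and are released from the spliced intron, while U3 is transcribed from genes of its own.

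CFL1 itself, the targeted gene, had normalized counts of 2285 and 2487 in the CFL1 KO libraries, against 6276 in control A and 13761 in control B. The authors' deposited table gives it a log2 fold change of -2.07 (SE 0.454), with a DESeq2 adjusted p of 0.00168. Recovered reads below a base mean of 10000 summed to 14600342 in CFL1 KO A and 12315062 in CFL1 KO B, against 14272076 in control A and 14229005 in control B. Control B stood apart. Over 17114 genes its log2 values correlated with those of the other libraries at Pearson's r of 0.704 to 0.713 (a correlation across genes, which are not independent replicates), against 0.977 to 0.985 among the other 3 libraries. It also departed in markers of the labelled cell type. KRT19, a keratin of ductal epithelium, was at 0 in both CFL1 KO libraries, against 1.82 in control A and 2481 in control B. KRT7, another such keratin, was at 4000 and 3683 in CFL1 KO, against 3551 in control A and 108 in control B. Of the 10 epithelial and ductal markers all had reads, and the 7 with recovered values summed to 6029 and 5939 in CFL1 KO, against 5422 in control A and 30418 in control B. ITGA2, an integrin, made up 26889 of the sum in control B, and MUC1, a mucin, was lower there, at 104, against 213 in control A. The 5 leukocyte markers summed to 45.2 and 36.7 in CFL1 KO, against 41.8 in control A and 1255 in control B, and PTPRC and CD3E among them were at or near 0 everywhere. The 3 acinar markers were at 0 in all libraries. The labels give control B the same line name as the rest. Whether it holds the same cells was not tested, and a mean over both controls averages 2 unlike libraries. Values against each control are therefore given beside the members' results.

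Which of these RNAs the table holds followed transcript length. With length taken from a gene's longest GENCODE 29 transcript, none of 706 SCARNA, SNORA and SNORD rows shorter than 150 nt and none of 23 rows from 150 nt to below 180 nt had a base mean above 0. At 180 nt or longer 23 of 36 rows did, namely 9 of 14 SCARNA, 8 of 15 SNORA and 6 of 7 SNORD rows. The other genes of the table showed the same boundary: 1 of 4809 genes shorter than 150 nt and 8 of 521 from 150 nt to below 180 nt had a base mean above 0, against 25.7% of 10698 genes from 180 nt to below 500 nt. The typical C/D box RNA is far below this length, the median over the matched SNORD rows being 78 nt. Whether the short guides were present in these cells cannot be read from a base mean of 0. Just inside the limit lay SNORA53 (base mean 5.997), SNORA59B (7.10) and SCARNA9 (9.89), and just outside it SNORA71B (4.54) and SNORA74A (3.74). For SCARNA the nearest members above the limit were SCARNA9 and SCARNA7 (109), and for SNORD they were SNORD3C (12.7) and SNORD17 (34.5), with SNORD91B (0.227) the only SNORD row between 0 and the limit and no SCARNA row there.

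The sequences below, from GENCODE 29 on GRCh38, show what was counted. The U3 genes on chromosome 17 come first because they are nearly the same RNA, which bears on how reads were divided among them. Capitals mark the positions that differ among the 4 U3 genes, counted from 1 at the 5′ end. SNORD3B-1 and SNORD3B-2 each differ from SNORD3A by A78C and are identical to each other over the 217 nt, and SNORD3C differs from SNORD3A by G108A.
SNORD3A: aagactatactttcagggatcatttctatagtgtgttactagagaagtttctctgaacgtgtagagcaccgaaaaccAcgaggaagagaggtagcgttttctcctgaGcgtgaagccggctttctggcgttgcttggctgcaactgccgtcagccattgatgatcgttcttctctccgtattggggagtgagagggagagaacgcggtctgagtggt
SNORD3B-1: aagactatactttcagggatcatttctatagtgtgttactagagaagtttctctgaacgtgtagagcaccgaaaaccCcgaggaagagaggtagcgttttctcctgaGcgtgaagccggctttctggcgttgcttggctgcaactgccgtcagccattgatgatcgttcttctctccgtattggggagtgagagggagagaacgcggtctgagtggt
SNORD3C: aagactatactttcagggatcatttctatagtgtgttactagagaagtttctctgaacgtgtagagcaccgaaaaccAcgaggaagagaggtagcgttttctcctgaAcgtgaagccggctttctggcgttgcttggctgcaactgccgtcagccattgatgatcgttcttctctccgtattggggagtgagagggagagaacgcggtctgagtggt

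The row named SCARNA10, on chromosome 12, carries an identifier that belongs in GENCODE 29 to AC006064.5, a sense intronic transcript of 248 nt that lies within the 330-nt SCARNA10. The row named SCARNA2 likewise belongs to AL356488.2, a lincRNA of 427 nt that contains the whole 420-nt SCARNA2. The row named SCARNA15 belongs to AC105339.2, a transcript of 4325 nt that contains the 127-nt SCARNA15, so most of that row's length is not the guide RNA. The U3 rows also include longer transcripts, of 581 to 791 nt.

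SCARNA5 on chromosome 2, SCARNA12 on chromosome 12, SCARNA13 on chromosome 14 and SNORA73B on chromosome 1 are shown as examples of the box letters that set the classes apart and of the different patterns described below. Capitals mark TGATGA (C box) in the first 25 bases, CTGA (D box) in the last 15 and ACA in the last 8, on the RNA strand alone. In SCARNA12 the last 2 overlap as CTGACA.
SCARNA5: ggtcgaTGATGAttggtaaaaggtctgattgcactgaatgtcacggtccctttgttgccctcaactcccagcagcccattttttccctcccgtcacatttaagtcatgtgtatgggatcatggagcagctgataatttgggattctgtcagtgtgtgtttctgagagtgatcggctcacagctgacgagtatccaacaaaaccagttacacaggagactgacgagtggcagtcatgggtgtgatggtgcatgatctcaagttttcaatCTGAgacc
SCARNA12: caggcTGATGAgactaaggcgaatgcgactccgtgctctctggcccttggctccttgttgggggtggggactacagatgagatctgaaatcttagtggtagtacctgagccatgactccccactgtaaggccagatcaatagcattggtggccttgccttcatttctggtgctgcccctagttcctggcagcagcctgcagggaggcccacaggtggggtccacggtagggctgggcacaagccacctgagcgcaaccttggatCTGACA
SCARNA13: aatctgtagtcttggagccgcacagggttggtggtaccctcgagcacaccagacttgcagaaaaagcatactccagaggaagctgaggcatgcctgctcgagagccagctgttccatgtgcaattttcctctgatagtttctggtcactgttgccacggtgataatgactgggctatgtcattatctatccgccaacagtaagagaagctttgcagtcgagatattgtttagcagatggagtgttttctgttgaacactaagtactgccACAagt
SNORA73B: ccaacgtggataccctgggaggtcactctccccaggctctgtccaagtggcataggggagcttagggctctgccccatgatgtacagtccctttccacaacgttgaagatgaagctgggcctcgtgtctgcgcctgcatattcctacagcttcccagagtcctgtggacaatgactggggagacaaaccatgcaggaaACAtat

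All 4 SNORA members carried ACA in the last 8 bases and none carried the D box letters, against 91.2% and 3.4% of 147 SNORA genes in GENCODE 29. All 5 SNORD members carried the D box letters, against 93.2% of 278 SNORD genes, but only SNORD17 had TGATGA at the 5′ end, against 69.4%. The U3 genes had no match to it there. SCARNA members were mixed. The D box letters occurred in 7 of 9, TGATGA in 5 of 9 and terminal ACA in 3 of 9, against 32%, 20% and 72% of 25 SCARNA genes. These matches describe letters only.

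**Figure D1:**
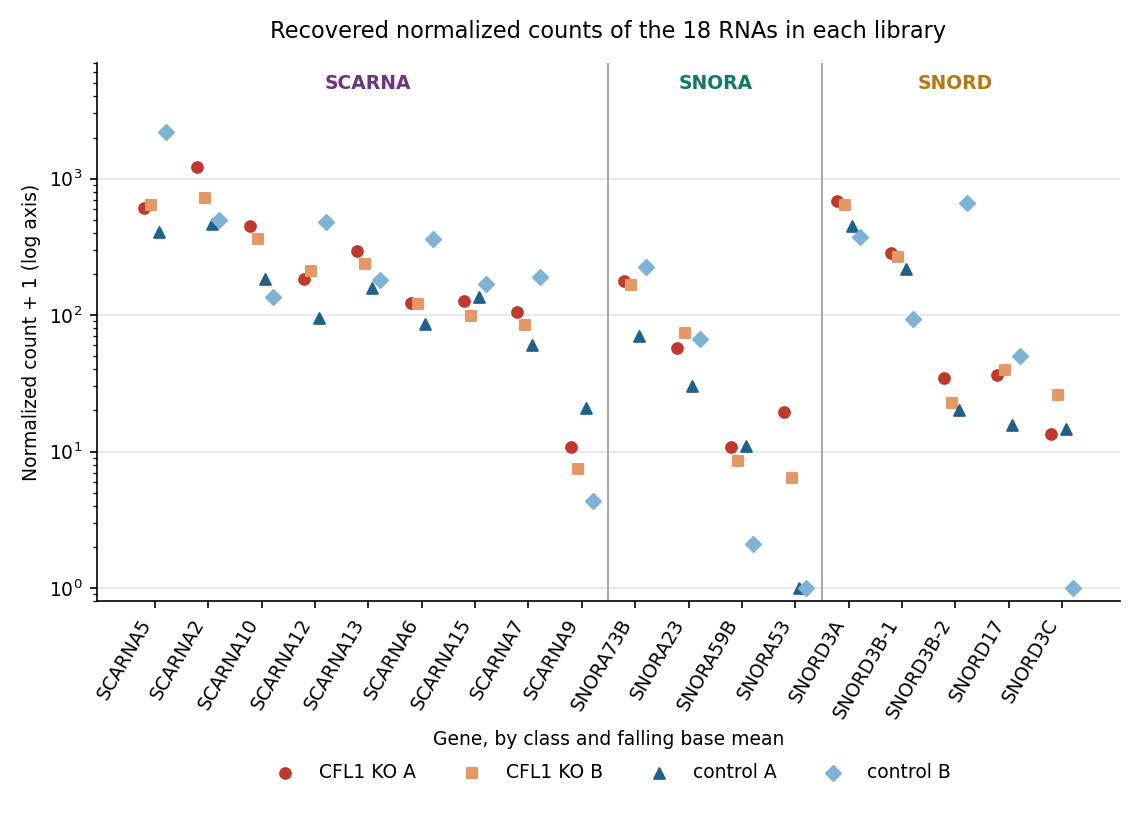
Recovered normalized count plus 1 (log axis) of the 18 RNAs in CFL1 KO A, CFL1 KO B, control A and control B, 1 point per library. SCARNA5 had 605 and 637 in the knockouts, between 405 in control A and 2194 in control B, while SCARNA10 had both knockouts (446 and 360) above both controls (183 and 134).

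SCARNA10 passed the authors' test, higher in CFL1 KO, a call that was lost without the filter on low base means and at an adjusted p under 0.01. This composite RNA carries C/D and H/ACA parts and guides modification of the U5 spliceosomal RNA. It had normalized counts of 446 in CFL1 KO A and 360 in CFL1 KO B, against 183 in control A and 134 in control B, so the groups did not overlap. The authors' deposited table gives SCARNA10 a log2 fold change of 1.35 (SE 0.358), with a DESeq2 adjusted p of 0.0350. It was the only one of 15 members with an adjusted p to pass 0.05, against 0.138% of 16629 genes called higher in CFL1 KO. No member was called lower, against 0.421% of genes. On the recovered reads, limma gave SCARNA10 a log2 difference of 1.35 (SE 0.366) with an adjusted p of 0.722, and called 0% of 24797 genes, of which 495 had an unadjusted p under 0.05 as did 2 members. The targeted gene CFL1 had the same limma adjusted p of 0.722, with a log2 difference of -1.96 (SE 0.436), so this fit did not call it either. For SCARNA10 the limma difference was 1.13 without control B and 1.57 without control A, each against a single control. NCAPD2, whose intron holds SCARNA10, encodes a condensin subunit and had counts of 4188 and 4353 in CFL1 KO, against 3957 in control A and 2792 in control B. For NCAPD2 the authors' deposited table gives 0.34 (SE 0.275, DESeq2 adjusted p 0.601) on the log2 scale.

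In 2 other Cajal body RNAs each knockout also exceeded each control, without passing the test. SCARNA2, which guides methylation of the U2 spliceosomal RNA and has no host gene, had 1205 and 716 in CFL1 KO, against 464 in control A and 500 in control B. The knockouts differed from each other by more than the controls did, and the authors' deposited log2 fold change was 0.996 (SE 0.376, DESeq2 adjusted p 0.227). SCARNA13, a tandem H/ACA guide, had 291 and 234 in CFL1 KO, against 157 in control A and 180 in control B (authors' log2 fold change 0.64, SE 0.335, DESeq2 adjusted p 0.409). Its host SNHG10 had 205 and 229 in CFL1 KO, against 210 in control A and 88.3 in control B, and so overlapped where SCARNA13 did not. Summed, SCARNA2, SCARNA10 and SCARNA13 stood at 1943 and 1310 in CFL1 KO, against 804 in control A and 814 in control B. These 3 were grouped after their values were seen.

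SCARNA5, SCARNA6, SCARNA7 and SCARNA12 showed another order, with control B highest, control A lowest and the knockouts between. SCARNA5 and SCARNA6 are composite guides that both lie in introns of ATG16L1. SCARNA5 had 605 and 637 in CFL1 KO, against 405 in control A and 2194 in control B. SCARNA6 had 121 and 119 in CFL1 KO, against 85.4 in control A and 362 in control B. In both RNAs the knockouts were close to each other, while control B was 5.41-fold control A for SCARNA5 and 4.24-fold for SCARNA6. SCARNA12, a composite guide that overlaps an exon of at least 1 PHB2 transcript, had 182 and 210 in CFL1 KO, against 94.5 in control A and 480 in control B. SCARNA7, a C/D guide in an intron of KPNA4, had 104 and 84.1 in CFL1 KO, against 59.1 in control A and 188 in control B. For all 4 the authors' log2 fold change was below 0, at -1.07, -0.90, -0.39 and -0.55 for SCARNA5, SCARNA6, SCARNA7 and SCARNA12, and none passed the test. Against control A alone the sign was reversed for all 4, with log2 differences of 0.61, 0.48, 0.65 and 1.04.

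SCARNA15, described here after its values were seen, and SCARNA9 did not follow either order. SCARNA15, an H/ACA guide counted here on a row that is mostly another transcript, had 125 and 98.1 in CFL1 KO, against 135 in control A and 169 in control B. It was the only member with both knockouts below both controls (authors' log2 fold change -0.44, SE 0.404, DESeq2 adjusted p 0.639). SNHG21, which holds SCARNA15 in an intron, was lower too, at 33.7 and 29.1 in CFL1 KO, against 50.9 in control A and 39.1 in control B. SCARNA9, a C/D guide for U2, had 11 and 6 reads in CFL1 KO, against 22 in control A and 3 in control B, too few to order the groups.

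Among the SNORD genes the results turn on U3, which binds the ribosomal RNA precursor and is needed for cutting out the RNA of the small subunit. SNORD3A had 690 and 643 in CFL1 KO, against 448 in control A and 372 in control B (authors' log2 fold change 0.70, SE 0.251, unadjusted p 0.00534, DESeq2 adjusted p 0.200). SNORD3B-1 had 282 and 267 in CFL1 KO, against 218 in control A and 92.8 in control B (authors' log2 fold change 0.82, SE 0.563). For both rows the knockouts lay above either control, but both depend on how reads were divided among the nearly identical U3 genes. For SNORD3B-1 this holds most for the division with SNORD3B-2. SNORD3B-2 went the other way, with 33.7 and 21.6 in CFL1 KO, against 19.1 in control A and 663 in control B. Its authors' log2 fold change of -3.62 (SE 1.38, DESeq2 adjusted p 0.232) rested on control B, and against control A alone its log2 difference was 0.48. SNORD3C had 14 and 23 reads in CFL1 KO, against 15 in control A and 0 in control B, a 0 that allows a share of up to 0.297% of the U3 reads of that library (3 of 1009 reads, counting error only).

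The division of U3 reads among the 4 genes was similar in 3 libraries and different in control B. The intervals treat estimated reads as independent and cover counting error only, not the division of reads between identical sequences. SNORD3B-2 took 3.3% (exact 95% interval 2.35 to 4.51) of the 1150 U3 reads in CFL1 KO A and 2.25% (1.38 to 3.46) of 887 in CFL1 KO B. The share was 2.73% (1.7 to 4.14) of 769 in control A and 58.8% (55.7 to 61.8) of 1009 in control B. SNORD3A took 67.7% and 67.2% in CFL1 KO, against 64.1% in control A and 33% in control B. Because the 217-nt forms of SNORD3B-1 and SNORD3B-2 do not differ, reads within them cannot be told apart, and the pair together, at normalized counts of 316 and 289 in CFL1 KO, against 237 in control A and 756 in control B, overlapped between the groups. It took 31% and 30.2% in CFL1 KO, against 33.9% in control A and 67% in control B. Summed over the 4 genes, which leaves the division out, U3 stood at 1018 and 957 in CFL1 KO, against 699 in control A and 1128 in control B. The sum was thus 1.41-fold control A and 0.876-fold control B, and the groups overlapped.

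**Figure D2:**
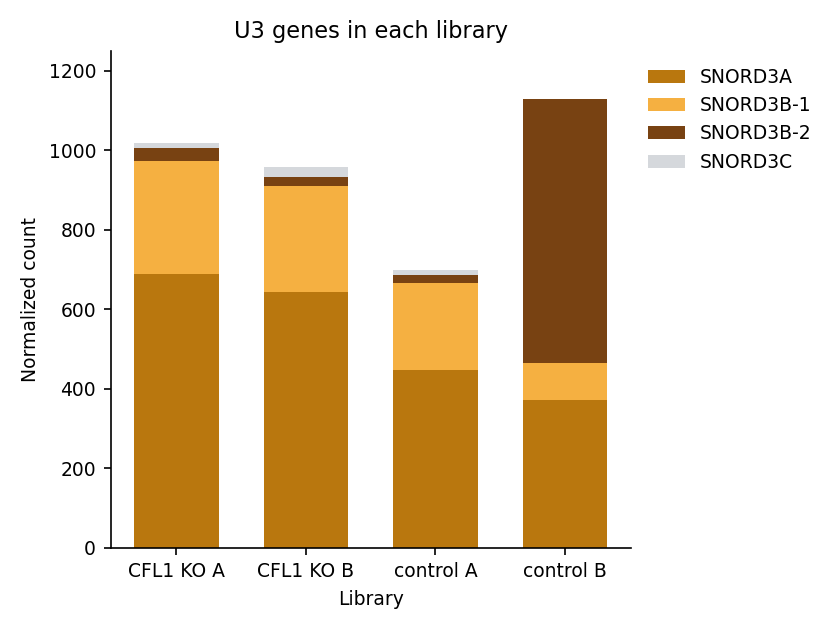
Normalized counts of SNORD3A, SNORD3B-1, SNORD3B-2 and SNORD3C stacked for CFL1 KO A, CFL1 KO B, control A and control B. SNORD3B-2 is a thin band in 3 libraries (33.7, 21.6 and 19.1) and 663 in control B. The summed heights are 1018 and 957 in the knockouts, against 699 in control A and 1128 in control B.

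SNORD17, a C/D guide for ribosomal RNA methylation in an intron of SNX5, had 35.4 and 38.8 in CFL1 KO, against 14.5 in control A and 49.2 in control B (authors' log2 fold change 0.23, SE 0.865). The knockouts lay between the controls.

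SNORA members were few and mostly low. SNORA73B, a copy of U17, which takes part in cleavage of the ribosomal RNA precursor, had 178 and 165 in CFL1 KO, against 69.1 in control A and 225 in control B. SNORA23, an H/ACA guide for ribosomal RNA in an intron of IPO7, had 56.7 and 73.3 in CFL1 KO, against 29.1 in control A and 65.9 in control B. In both the knockouts were above control A and within or near the level of control B, with authors' log2 fold changes of 0.23 (SE 0.711) and 0.46 (SE 0.682). SNORA59B had 11 and 7 reads in CFL1 KO, against 11 in control A and 1 in control B. SNORA53, which overlaps an exon of at least 1 SLC25A3 transcript, had 21 and 5 reads in CFL1 KO, against 0 in both controls. Set against a floor of 3 reads over the 2 controls together, its CFL1 KO mean of 11.99 was at least 7.97-fold higher, and without CFL1 KO A at least 3.59-fold. With so low a base mean SNORA53 entered the set only through the knockouts, and the authors' table gives it an unadjusted p of 0.00468 and no adjusted p. SLC25A3, a mitochondrial phosphate carrier, had 9155 and 8857 in CFL1 KO, against 7780 in control A and 8292 in control B.

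**Figure D3:**
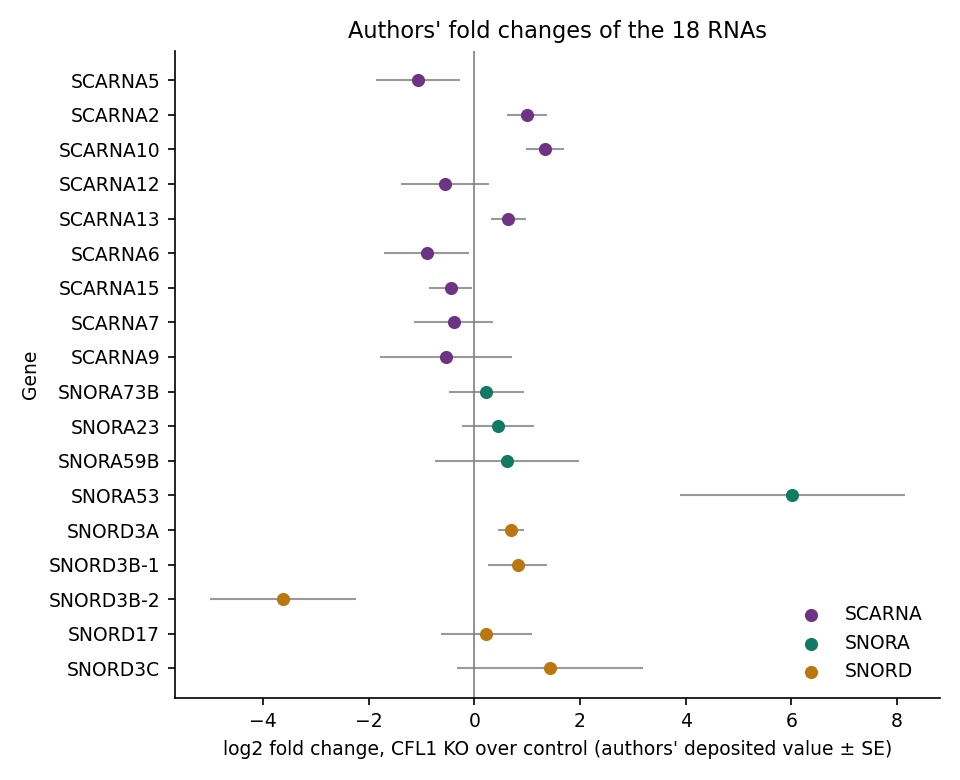
The authors' deposited log2 fold change of CFL1 KO over control with its standard error (bars) for the 18 RNAs, colored by class. SCARNA10 at 1.35 is the only called member, and SNORD3B-2 at -3.62 and SNORA53 at 6.02 have the widest departures and standard errors of 1.38 and 2.13.

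By class, the authors' deposited log2 fold changes were above 0 for 3 of 9 SCARNA, 4 of 4 SNORA and 4 of 5 SNORD members. Leaving out SNORA53, whose direction was fixed by the limit, the SNORA count was 3 of 3. The share was 48.3% of the 19603 genes at the same base mean. The SCARNA median was -0.44 (quartiles -0.55 and 0.64), the SNORA median 0.54 (0.40 and 1.97) and the SNORD median 0.70 (0.23 and 0.82), against -0.03 (-0.58 and 0.47) over all genes. Which control was used decided the SCARNA value. Against control A alone the SCARNA median on the log2(normalized count + 1) scale was 0.65, and against control B alone it was -0.60. The SCARNA medians of -0.44 and -0.60 were the values of SCARNA15, whose row is mostly another transcript. Against control A and control B in turn, the SNORA medians were 1.21 and 1.07, and the SNORD medians 0.48 and 0.84, beside 0.00 and 0.02 over all genes. Of the 5 SNORD members 4 are U3 genes, so the SNORD count and medians depend on how U3 reads were divided. Summed, the SNORD members stood at 1.44-fold control A and 0.87-fold control B. The SNORA value against control B came from SNORA53 and SNORA59B, which had 0 and 1 reads there, while SNORA73B and SNORA23 were at -0.39 and -0.03. Without SNORA53, whose direction the base mean limit fixed, the SNORA median of the authors' values was 0.46. With all 4 libraries on the log2(normalized count + 1) scale the medians were -0.13 for SCARNA, 0.77 for SNORA (SNORA53 included) and 0.70 for SNORD members.

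Both CFL1 KO libraries exceeded both controls for 6 of 18 members (33.3%), against 23% of 19407 genes with recovered reads at that base mean. These were SCARNA2, SCARNA10, SCARNA13, SNORD3A, SNORD3B-1 and SNORA53. Leaving out SNORA53, which had to be higher to enter the set, leaves 5 of 17, and leaving out SNORD3B-1 as well leaves 4. These 4 still include SNORD3A, whose reads also depend on the division among the U3 genes, and the U3 sum overlapped between the groups. Both lay below both controls for 1 member, against 20.7% of genes. With control B left out, a comparison added after the data were seen, both knockouts exceeded control A for 14 of 18 members (77.8%), against 39.1% of genes, and lay below it for 3, against 37.9%. The 14 were 7 SCARNA, 3 SNORA and 4 SNORD genes, or 13 without SNORA53. Measured from control B, 9 members were higher in both knockouts and 8 lower, against 46.6% and 45.3% of genes. The controls differed from each other more than 2-fold for 12 members, with control B higher for 8 (against 21.3% of genes) and lower for 4 (25.5%), whereas the knockouts differed more than 2-fold for 1, SNORA53. At an unadjusted p under 0.05 by the authors' fit, 4 members, or 3 without SNORA53, were higher in CFL1 KO, against 1.97% of 30831 genes, and 1 was lower, against 5.65%. Those 30831 genes are all with a base mean above 0, so they include genes below the members' limit of 5. These shares are therefore not taken at the same limit as the members. Without control A, limma called 6 members, against 33.9% of 24755 genes, namely SNORD3A and SNORD3B-1 higher and SCARNA5, SCARNA6, SCARNA12 and SNORD3B-2 lower. A single control then stands for the group and its spread is taken from the knockouts.

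**Figure D4:**
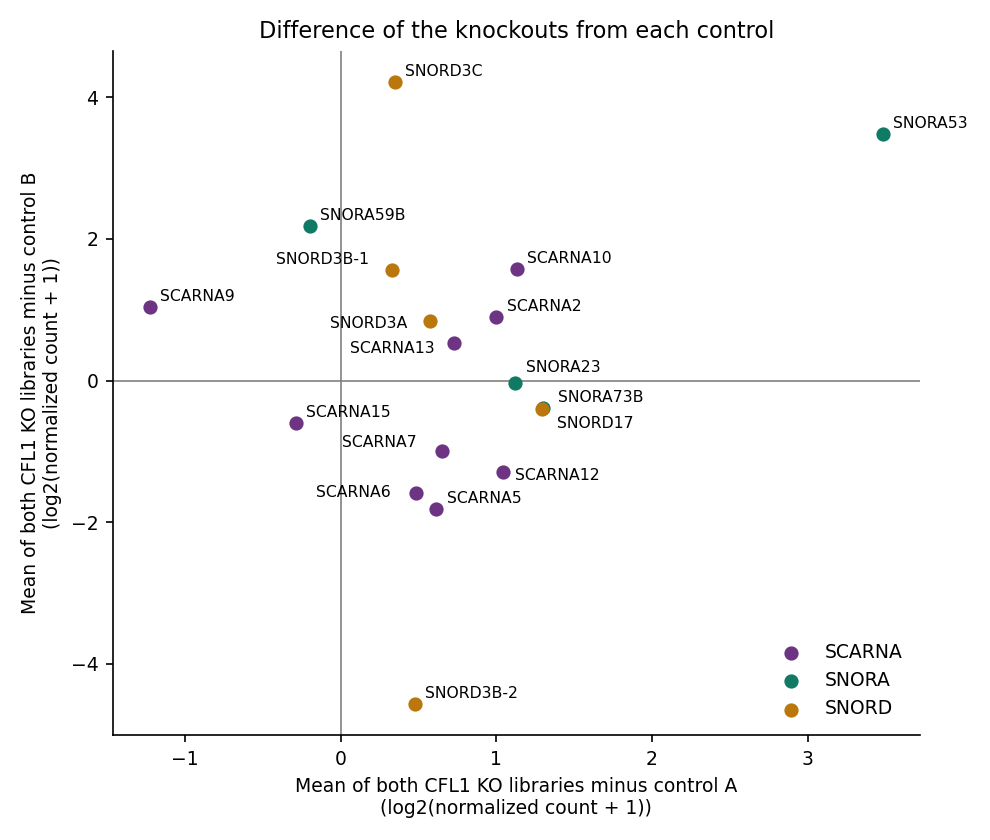
Mean of both CFL1 KO libraries minus control A (horizontal) and minus control B (vertical), in log2(normalized count + 1), for the 18 RNAs by class. SCARNA10, SCARNA2, SCARNA13, SNORD3A and SNORD3B-1 lie above 0 on both axes, and SCARNA5, SCARNA6, SCARNA7, SCARNA12 and SNORD3B-2 lie right of 0 and below it.

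Class totals depended on the scaling. Per 1000000 recovered reads, SCARNA genes took 239 and 186 in CFL1 KO, against 124 in control A and 265 in control B. SNORA genes took 20.3 and 18.9 in CFL1 KO, against 8.34 in control A and 18.3 in control B. SNORD genes took 81.5 and 74.95 in CFL1 KO, against 55.0 in control A and 74.0 in control B. On that scale the knockouts lay between the controls for SCARNA members and above both controls for SNORA and SNORD members. On normalized counts the SNORA members summed to 263 and 251 in CFL1 KO, against 108 in control A and 292 in control B, and the SNORD members to 1054 and 995, against 713 in control A and 1177 in control B, so both sums overlapped. The ratio of CFL1 KO to control was 1.09 for SCARNA, 1.47 for SNORA and 1.21 for SNORD members per 1000000 reads, and 0.955, 1.29 and 1.08 on normalized counts. The direction of the SCARNA total thus turned with the scaling.

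Host genes were not used in choosing the members. A host on the same strand was found for 13 of the 18, in introns for 11 of them, and 0 of the 13 host genes with an authors' adjusted p passed it. In 6 members that were more than 2-fold higher in control B than in control A, and whose hosts had recovered reads, all 6 hosts were higher in control B as well, against 49.3% of genes. ATG16L1 holds both SCARNA5 and SCARNA6, and SNORA73B lies in both RCC1 and SNHG3, so these are not 6 independent cases. SNHG10 and SNHG21 went against their RNAs, at 0.421-fold and 0.769-fold control A in control B, beside 1.15-fold for SCARNA13 and 1.25-fold for SCARNA15. ATG16L1, an autophagy gene, had 557 and 619 in CFL1 KO, against 610 in control A and 1659 in control B, a 2.72-fold gap between the controls beside 5.41-fold for SCARNA5 and 4.24-fold for SCARNA6. KPNA4, a nuclear import adaptor, had 2918 and 3425 in CFL1 KO, against 3672 in control A and 9936 in control B. PHB2, a mitochondrial scaffold protein, had 1395 and 1447 in CFL1 KO, against 1143 in control A and 2043 in control B. RCC1 and SNHG3, which share SNORA73B, were 1.47-fold and 1.29-fold higher in control B than in control A, beside 3.25-fold for SNORA73B itself. Relative to control A, some hosts lay nearer 1 than their RNAs. SNORA73B stood at 2.48-fold control A in the knockouts, against 1.03-fold for RCC1 and 0.955-fold for SNHG3, and SNORD17 at 2.55-fold, against 0.916-fold for SNX5. SCARNA15 went the other way, at 0.823-fold, against 0.617-fold for SNHG21. SNX5, a sorting nexin, had 1356 and 1450 in CFL1 KO, against 1532 in control A and 2130 in control B, and OVOL2, which also spans SNORD17, had a base mean of 1.12. CEP295, a centrosomal protein gene that holds SCARNA9, had 2786 and 3087 in CFL1 KO, against 3753 in control A and 1237 in control B. SLC47A1, an organic cation exporter that holds SNORA59B, had 267 and 397 in CFL1 KO, against 452 in control A and 401 in control B. IPO7, a nuclear import receptor, lies above the base mean at which reads were recovered, with an authors' log2 fold change of -0.39 (SE 0.415). Whether reads in these rows came from the processed small RNA or from unspliced host transcripts cannot be told apart in the table.

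**Figure D5:**
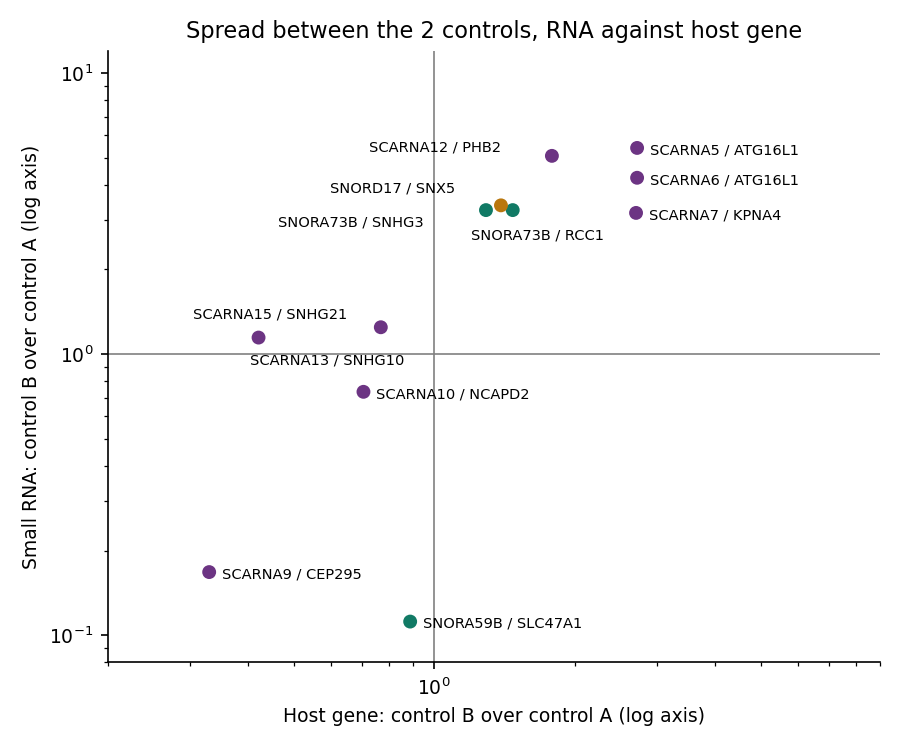
Control B over control A (log axes) for each small RNA (vertical) and its host gene (horizontal), 1 point per pair with recovered reads. The hosts of SCARNA5, SCARNA6, SCARNA7, SCARNA12, SNORA73B and SNORD17 all lie right of 1, and CEP295, host of SCARNA9, lies left of it at 0.33.

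The proteins that bind these RNAs were not called. None of the 4 measured C/D core proteins passed the authors' DESeq2 adjusted p, and their median log2 fold change was -0.90 against -0.03 over all genes. NOP56 had 1461 and 1309 in CFL1 KO, against 1438 in control A and 3779 in control B, and SNU13 had 1223 and 1323, against 1188 in control A and 2801 in control B. FBL, the methyltransferase fibrillarin, had an authors' log2 fold change of -2.90 (SE 1.61, adjusted p 0.435) and lies above the base mean at which reads were recovered. Among the 4 H/ACA core proteins, with a median of -0.37, DKC1, the pseudouridine synthase, had 2399 and 2443 in CFL1 KO, against 2317 in control A and 5279 in control B. NHP2 had 1047 and 904, against 882 in control A and 1359 in control B, and NOP10 had 370 and 327, against 242 in control A and 496 in control B. The median log2 difference from control A alone was -0.06 for the C/D proteins and 0.24 for the H/ACA proteins.

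Genes that assemble, traffic and trim the particles were likewise uncalled. None of 15 assembly factors passed, with a median of -0.07 and RUVBL2, ZNHIT6 and RUVBL1 at -0.07, -1.72 and 0.30. The ZNHIT6 value rested on control B, with 729 and 821 in CFL1 KO, against 712 in control A and 4405 in control B. None of 17 Cajal body and trafficking genes passed, with a median of -0.13 and ICE1, NOLC1 and GEMIN5 at 0.37, 0.25 and -0.21. None of 17 trimming and decay genes passed, with a median of -0.17 and XRN1, SKIV2L2 and NCBP1 at 0.37, -0.17 and 0.30. The processome that U3 joins had 32 measured rows, none called, with a median of -0.38. Among them 16 lay below both controls in both knockouts, against 20.7% of genes, and 16 lay below control A, against 37.9%. HEATR1, UTP20 and WDR36 were at -0.52, -0.67 and -0.47 in the authors' table. On the log2(normalized count + 1) scale the median differences from control A and from control B were 0.06 and -0.23 for assembly, 0.04 and -0.29 for Cajal body, -0.09 and -0.23 for trimming and -0.06 and -0.54 for processome genes.

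Noncoding host genes of small nucleolar RNAs had a median above that of all genes. Of 28 measured, 1 passed the authors' test upward and none downward, against 0.138% and 0.421% of all genes, and limma with all 4 libraries called no gene. Their median log2 fold change was 0.57 against -0.03 over all genes, with median differences of 0.20 from control A and 0.90 from control B. The called gene, SNHG8, had 713 and 657 in CFL1 KO, against 391.7 in control A and 341 in control B (authors' log2 fold change 0.90, SE 0.240, DESeq2 adjusted p 0.0351). LRRC75A-AS1 had 6832 and 6818 in CFL1 KO, against 4589 in control A and 3152 in control B, and GAS5 had 4656 and 4990, against 3075 in control A and 1001 in control B. SNHG16 had 2440 and 2472, against 2195 in control A and 5511 in control B. Both knockouts exceeded both controls for 14 of the 28, against 23% of genes, and 17 exceeded control A, against 39.1%. The short RNAs that most of these genes carry have base means of 0 here, so host and guide cannot be compared.

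From a list of 30 spliceosomal and other small noncoding RNAs, 9 rows reached a base mean of 5, none called, with a median log2 fold change of 0.10. RPPH1, RN7SK and RN7SL1 were at 0.10, 0.87 and -0.78 in the authors' table. Another row named RN7SK, of base mean 31.0, was at -2.67 (SE 4.58). It had 16.8 and 0 in CFL1 KO, against 0 in control A and 107 in control B. Recovered reads existed for 4 rows, and 3 of them, named here after their values were seen, had both knockouts above both controls, against 23% of genes. TERC, the telomerase RNA, which also has an H/ACA domain, had 1434 and 1051 in CFL1 KO, against 641 in control A and 918 in control B. RNU2-2P had 185 and 147 in CFL1 KO, against 90.9 in control A and 70.4 in control B. RNU12, the U12 spliceosomal RNA, had 56.7 and 62.5 in CFL1 KO, against 40.9 in control A and 25.7 in control B.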

How the data were processed

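Total RNA of PANC-1 cells was sequenced on an Illumina instrument, per the labels' protocols. Tools listed in the submitters' processing notes are STAR, RSEM, cutadapt and FastQC, with hg19 as the build and no versions or order. The only file is the authors' DESeq2 table. The deposited base mean is a signal that averages size-factor-scaled counts of the 4 libraries. Its fold change and standard error are on the log2 scale, as the authors fitted them, and its Wald score is their ratio, as deposited. The deposited p-value columns hold unadjusted and Benjamini-Hochberg adjusted values.

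Reads per library were recovered as the whole numbers whose scaled sum gives the deposited base mean, and the sign of the deposited contrast told which libraries were knockouts. Tried only below a base mean of 10000, this succeeded for 30635 of all 30831 genes with a base mean above 0. All 18 members had exactly 1 solution. From a base mean of 40 the deposited fold change narrowed the search, and the 15 members below 300 also had 1 solution without it. Refitting 15 members from these reads, at the dispersion that gives the deposited standard error, gave the deposited fold change to within 1.48e-05 on the log2 scale. For members above a base mean of 300 the fold change helped to choose the reads, so their match is not an independent check. The 169 genes at or above 10000 were left out of values per library. RSEM estimates counts, so recovered reads are its rounded estimates. The reads are derived, so no count model was used for calls. Genes whose mean normalized count was at least 1 were tested by limma 3.58.1 (R 4.3.3, trended prior) after log2(normalized count + 1), a scale that shrinks changes of low genes. The limma step was tested on simulated reads in which both controls had the same means, so that test does not cover the gap between the controls here. Annotation and sequences were from GENCODE 29 (GRCh38), matched by gene identifier, for 765 of 841 rows. The deposited table uses hg19, so no coordinates are given.

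Members and gene lists were chosen with earlier results of these data known. The rule for named genes took CFL1, the 5 members of highest base mean in each class, those past an adjusted or unadjusted p of 0.05 or with the 3 largest changes of a class, those next to the base mean limit, U3 and U17 genes, hosts, and for each list the 3 genes of highest base mean and any called. Marker genes were fixed in a separate list. Python 3.11.15, numpy 2.4.6, pandas 2.3.3, scipy 1.17.1 and matplotlib 3.10.9 were used. Alternatives were other base mean limits and p thresholds, other limma settings, each control alone and leaving out each library.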

Additional observations from a re-analysis of the deposited data

How the results depend on the processing

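The count of members called by the authors' adjusted p, 1, became 0 without their filter on low base means and 0 at an adjusted p under 0.01, and 5 at an unadjusted p under 0.05. With limma the count of 0 became 6 in 1 of the leave-one-out fits, without control A, and ranged from 0 to 6 over these fits. SCARNA10 kept its direction in the limma fit and its 8 alternatives and passed 0.05 in none. Members with both knockouts above both controls, 6, ranged from 9 to 14 with a control left out, and members below both, 1, ranged from 3 to 8, where fewer libraries have to be passed. The authors' fold changes and the log2(normalized count + 1) scale of the values per library differ, and that scale alone, with all 4 libraries, gave medians of -0.13 for SCARNA, 0.77 for SNORA and 0.70 for SNORD members. On it the SCARNA median of -0.44 became 0.65 against control A alone and ranged from -0.60 to 0.65 when each library was left out. The SNORA median of 0.54 became 0.34 at a base mean of at least 10 or 50, which leaves 2 genes. On the per-library scale it was 1.21 against control A alone and 1.07 against control B alone, and ranged from 0.78 to 1.21 with each library left out. Those per-library SNORA medians include SNORA53, whose direction the base mean limit fixed. The SNORD median of 0.70 became 0.46 with all base means above 0 and 0.48 against control A alone, and ranged from 0.48 to 0.84. The ratio of class shares per 1000000 reads, CFL1 KO over control, ranged from 0.802 to 1.72 for SCARNA, from 1.07 to 2.35 for SNORA and from 1.06 to 1.42 for SNORD members with a library left out, against 1.09, 1.47 and 1.21 with all 4. No paired analysis was possible because the recovered libraries carry no replicate number. Where a value changed, the cause was not tested beyond the scale, the members and the library left out.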
